A study of Drosophila melanogaster with 2 samples.

Results

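The monoamine synthesis and transport genes examined here are ple, Ddc, Pu, Hn, Vmat, DAT, SerT, Tbh and Tdc2, the core genes that make, package and take up dopamine, serotonin and octopamine in the fly and that supply their pterin cofactor. They were taken by gene symbol from the array's probe annotation, with upper and lower case kept. Of the 9 genes, 7 had at least 1 probe set of their own, and these 7 were read by 8 of the 12443 probe sets that carry a single gene symbol (10844 genes in all). The annotation listed no probe set for Hn or Tdc2. Heads came from adult males of the w1118 strain (also spelled w118 in the labels) of Drosophila melanogaster, which carries a mutant allele of the pigment transporter gene white, so both groups share that allele. The unexposed group held 1 array, from males kept in food bottles and harvested at adult day 3. The paraquat group held 1 array, from males moved at adult day 2 to sucrose with 15 mM paraquat for 30 h and also harvested at adult day 3. Flies of both groups were collected within 24 h of eclosion and housed in constant darkness at 25 °C and 70% humidity with about 200 flies to a bottle, and each array read poly(A) RNA of pooled heads. Flies on plain sucrose were not analysed here, so paraquat and the change of diet cannot be told apart.

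Monoamine neurons are few in the fly brain and act widely, on movement, sleep, arousal, feeding and memory. Tyrosine hydroxylase (ple) turns tyrosine into dopa, and dopa decarboxylase (Ddc) turns dopa into dopamine and 5-hydroxytryptophan into serotonin. Tyrosine decarboxylase (Tdc2 in neurons) and tyramine beta-hydroxylase (Tbh) make octopamine. The hydroxylases of dopamine and serotonin synthesis need tetrahydrobiopterin, whose first committed enzyme is GTP cyclohydrolase (Pu). The vesicular transporter Vmat loads amines into synaptic vesicles, and DAT and SerT return released dopamine and serotonin to the cell. ple, Ddc and Pu have a further role outside the nervous system, in the hardening and darkening of cuticle, and Pu also feeds the pteridine eye pigments. Paraquat is a redox-cycling herbicide, and the labels give its purpose here as profiling the effect of oxidative stress.

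Values are intensities on a linear scale, with each array scaled to a common median of 825.2. A floor was set at 477.3, and a probe set counts as measured if both arrays reach it; no ratio is given if neither does. With 1 array under the floor, the bright value is set against the floor or, if that is higher, the highest absent control of the dim array, and the difference is written as at least that fold. Absent controls are probe sets whose targets, mouse, yeast or bacterial transcripts, were not expected in these samples. Ratios are paraquat over unexposed. Each log2 ratio carries an array error, 1 SE built from control probe sets, which covers array noise and leaves out the spread between flies, bottles and RNA preparations. No array error was computed where 1 array was under the floor, so those bounds may lie within array noise. With 1 array a group there was no replicate check, no test was possible and no p-value was computed. In these pooled heads, fewer cells of a type and less RNA per cell cannot be told apart.

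Of the 7 genes with a probe set, 5 were measured on both arrays and 2, ple and SerT, were under the floor on both. Pu and DAT had the lowest log2 ratios of the measured genes, Vmat was also below 0, Ddc was close to equal, and Tbh lay near the floor on both arrays. No measured gene reached 2-fold in either direction. Over all 7425 measured probe sets, 8.22% were lower by 2-fold or more with paraquat and 8.15% were higher, so a count of 0 among 5 genes is not a result about them. At 1.5-fold, 2 of the 5 (Pu and DAT) were lower and none higher, against 17.4% and 19.1% of all measured probe sets. Of the 5 genes, 4 had a ratio below 0, against 47.9% of all measured probe sets. The median log2 ratio was -0.54 over the 5 genes and 0.03 over all measured probe sets. With ple and SerT kept at the floor, the median over 7 genes was -0.14.

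**Figure D1:**
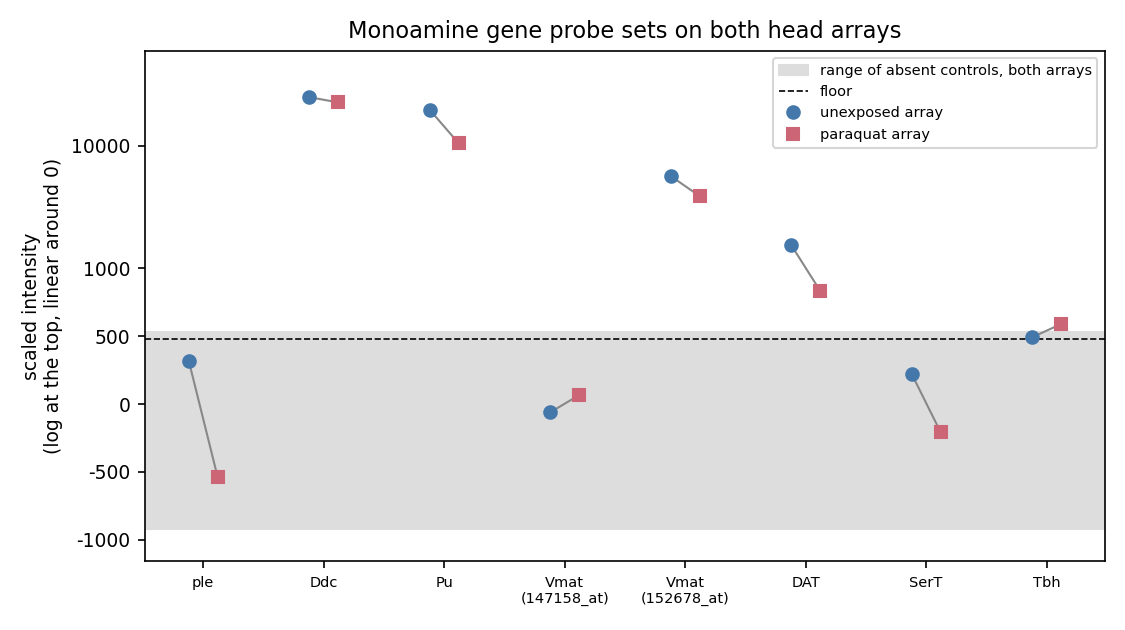
Scaled intensity (vertical axis, logarithmic at the top and linear around 0) of the 8 probe sets of monoamine genes on the unexposed array (blue circles) and the paraquat array (red squares). The dashed line is the floor of 477.3 and the grey band is the range of the absent controls of both arrays; ple, SerT and 1 of the 2 Vmat probe sets lie under the floor on both arrays, while Ddc and Pu are far above it on both.

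Among the enzymes of amine synthesis, Ddc (probe set 152611_at) had a scaled intensity of 25038 in unexposed heads and 22680 in heads of paraquat-fed flies. The paraquat value was 90.6% of the unexposed one (log2 ratio -0.14 ± 0.12, array error), and the 95% interval of array error ran from -0.38 to 0.09. The Ddc signal was therefore nearly level between the arrays at a brightness 47.5 to 52.5 times the floor, where array noise is small. Tyrosine hydroxylase gave no usable signal: ple (143559_at) read 317 in unexposed heads and -539 with paraquat. A value below 0 arises where the background taken off is larger than the signal of the probes. Both ple values lay inside the range of the 23 absent controls, which ran from -730 to 446 on the unexposed array and from -918 to 533 on the paraquat array. No level of ple and no direction can be read from this probe set, and 33.6% of all probe sets were under the floor on both arrays in the same way.

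Tbh, the last enzyme of octopamine synthesis, read 492 in unexposed heads and 588 with paraquat (143596_at). Both values were just above the floor and above the highest absent control of their own array. The log2 ratio of 0.26 had an array error of ± 1.37, with a 95% interval from -2.44 to 2.95, so neither a rise nor a fall of several-fold was detectable at this signal. Hn, the phenylalanine hydroxylase that also serves serotonin synthesis outside neurons, and Tdc2 have no value here. Tdc1, the non-neuronal tyrosine decarboxylase, had 1 probe set, which read -296 in unexposed heads and 920 with paraquat, at least 1.93-fold higher against the floor. In the RefSeq gene table Tdc1 and Tdc2 lie close together and share an earlier gene model among their synonyms. Which of both transcripts this probe set reads was not tested.

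Pu and DAT had the lowest log2 ratios among the measured monoamine genes, with Pu the lower here and DAT the lower after quantile normalization (-0.90 against -0.88) and loess (-0.94 against -0.89). GTP cyclohydrolase (Pu) read 19709 in unexposed heads and 10494 with paraquat (154812_at), or 53.2% of the unexposed value. This is 1.88-fold lower (log2 ratio -0.91 ± 0.13), and the 95% interval of array error, from -1.16 to -0.66, did not include 0. Of all measured probe sets, 9.51% had a ratio as low or lower, and 14.8% were lower beyond the 95% interval of array error, which held for Pu and Vmat among the 5 genes. None of the 5 was higher beyond that interval, as were 15.0% of all measured probe sets. The bright signal, 22.0 times the floor or more on both arrays, keeps the array error of Pu small. The value has no replicate behind it.

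The 3 other measured genes of tetrahydrobiopterin synthesis and recycling were also below 0, against 47.9% of all measured probe sets. None of the 3 was past 2-fold, and their median was -0.46. Pcd, the carbinolamine dehydratase that recycles the used cofactor, went from 6841 to 3445 (log2 ratio -0.99 ± 0.20), next to the 2-fold line and past it after loess, at -1.04. The 6-pyruvoyltetrahydropterin synthase gene pr, which acts after Pu, went from 11848 to 8637 (-0.46 ± 0.14). Dhpr, a dihydropteridine reductase, went from 5620 to 4286 (-0.39 ± 0.19). All 3 were lower beyond the 95% interval of array error, against 14.8% of all measured probe sets. The sepiapterin reductase gene Sptr was under the floor on both arrays. Catsup, a negative regulator of tyrosine hydroxylase and GTP cyclohydrolase activity in the fly, went from 4952 to 3637 (-0.45 ± 0.21). Hdc, which makes histamine, the photoreceptor transmitter, went from 9489 to 7950 (-0.26 ± 0.14).

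**Figure D2:**
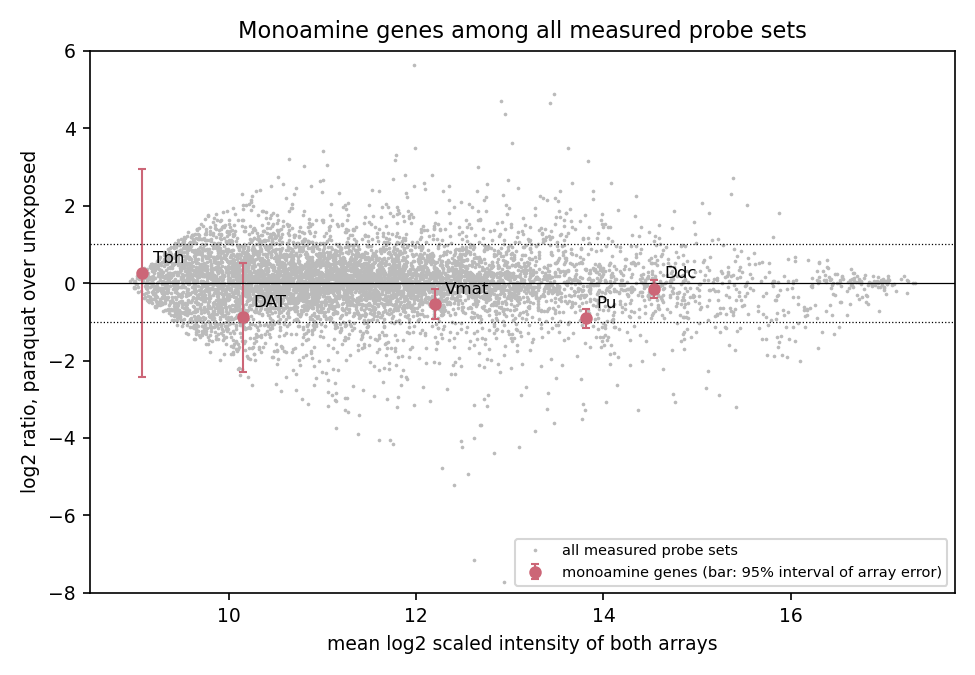
Log2 ratio of paraquat over unexposed (vertical axis) against the mean log2 scaled intensity of both arrays (horizontal axis) for the 7425 measured probe sets (grey) and the 5 measured monoamine genes (red, with bars of the 95% interval of array error); dotted lines mark 2-fold. Pu and Ddc sit among the bright probe sets with short bars, and the bars of DAT and Tbh, which are dim, cross 0.

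Of the transporters, Vmat was read by a pair of probe sets that did not give the same picture. Probe set 152678_at read 5662 in unexposed heads and 3884 with paraquat, 1.46-fold lower (log2 ratio -0.54 ± 0.20, 95% interval of array error from -0.93 to -0.15). Probe set 147158_at read -61 and 66, under the floor on both arrays. The value for Vmat thus rests on 1 probe set. Of all measured probe sets, 18.6% had a ratio as low or lower.

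DAT, the dopamine transporter and the site of the short-sleeping fumin mutation, read 1544 in unexposed heads and 834 with paraquat (147316_at). Both values were above the absent controls of their array, at 3.23 and 1.75 times the floor. The log2 ratio was -0.89 ± 0.71, and its 95% interval of array error ran from -2.29 to 0.51. DAT and Pu therefore had nearly the same ratio, and only for Pu did the 95% interval of array error leave out 0. SerT, the serotonin transporter (143621_at), read 221 and -208, under the floor and inside the range of the absent controls on both arrays, and no ratio is given for it.

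Among 45 other genes listed for amines, cuticle tanning and eye pigments, the genes of cofactor supply above included, 39 had a probe set and 25 were measured. Past 2-fold were 5 of the 25 in the lower direction and 0 in the higher, against 8.22% and 8.15% of all measured probe sets, and their median was -0.45, against 0.03. Of the 5, bw has a second probe set that went the other way, and with that one in its place the counts were 4 lower and 1 higher and the median -0.39. Another, 5-HT1A, was not above the highest absent control with paraquat. These genes are described by counts, medians and single ratios without a test, and were chosen with earlier results of these data known.

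The enzymes and transporters that conjugate or recycle amines had a median of -0.25. Of 5 measured genes, 1 passed 2-fold, in the lower direction, against 8.22% of all measured probe sets. That gene was speck, the arylalkylamine N-acetyltransferase that acetylates dopamine and serotonin. It read 15015 in unexposed heads and 4943 with paraquat, 3.04-fold lower (log2 ratio -1.60 ± 0.16). Its ratio was lower than those of the 5 monoamine genes above. The beta-alanyl amine synthase gene e, active in glia, had a log2 ratio of -0.25 ± 0.17, and the hydrolase gene t, which frees dopamine and histamine from their beta-alanyl conjugates, one of 0.22 ± 0.14. Neither lay beyond the 95% interval of array error.

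Receptor genes were measured in part. Of dopamine receptors 3 were measured, with no gene past 2-fold and a median of 0.14; DopEcR (-0.56 ± 0.38) and Dop2R (0.15 ± 0.66) differed most from 0. Among serotonin receptors 2 were measured. 5-HT1A read 1208 in unexposed heads and 529 with paraquat, where it was not above the highest absent control of 533, which leaves a bound of at least 2.27-fold lower against that control with an array error of ± 1.07 on the log2 scale. 5-HT2A had a log2 ratio of -0.13 ± 0.25, and the other 3 serotonin receptors were under the floor on both arrays. Of octopamine and tyramine receptors 3 were measured, none past 2-fold, with a median of -0.53. Octbeta1R (-0.60 ± 0.88) and Oct-TyrR (-0.53 ± 1.03) were the lowest of these and lay within array error, and 4 more were under the floor on both arrays.

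The 3 measured genes of cuticle tanning were all below 0, against 47.9% of all measured probe sets, while eye pigment genes went both ways. In the cuticle tanning and melanization list the median was -1.02. There 2 of the 3 measured genes, both encoding prophenoloxidases, passed 2-fold in the lower direction, against 8.22% of all measured probe sets. These were PPO1, from 4001 to 1434 (log2 ratio -1.48 ± 0.40), and PPO2, from 3385 to 1675 (-1.02 ± 0.36). PPO2 was under 2-fold in the values without further scaling and with a pseudocount of 500 in place of the floor. A second PPO2 probe set was under the floor on both arrays. Both prophenoloxidases are made by blood cells. The haemocyte markers had a median of -0.70, with 4 of 5 measured genes below 0 and srp above it (0.77 ± 0.37), and their part in the PPO1 and PPO2 values was not tested. The log2 ratio of amd, a relative of Ddc, was -0.56 ± 0.35. The pigmentation gene y read 512 in unexposed heads and 225, under the floor, with paraquat, where the highest absent control (533) exceeded both, so no ratio is given. Among eye pigment genes, 1 of 4 measured passed 2-fold, against 8.22% lower and 8.15% higher of all measured probe sets. This was bw, a partner of the white transporter, and its direction differed between its probe sets. It went from 2757 to 731 on 1 probe set (-1.92 ± 0.74), while its second probe set went the other way, from 424, under the floor, to 1476, at least 3.09-fold higher. The direction of bw is therefore not settled, and the median of the list was 0.09 with the first probe set, 0.56 with the second and 0.30 without bw. st, another partner of white, read 756 and 188, at least 1.42-fold lower against the highest absent control. Array error was not computed for this bound, and came to 1.54 on the log2 scale for a probe set at the floor. The xanthine dehydrogenase gene ry went from 1709 to 3024 (0.82 ± 0.37), and cl went from 11360 to 14017 (0.30 ± 0.13). Both ry and cl were higher beyond the 95% interval of array error, against 15.0% of all measured probe sets.

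Genes of other transmitters were all below 0 among the 5 measured, against 47.9% of all measured probe sets. None was past 2-fold, and the median was -0.25. Lower beyond the 95% interval of array error were 2 of the 5 (Gat and ChAT), against 14.8% of all measured probe sets, and the others lay within it. The plasma membrane GABA transporter Gat, a glial gene, went from 3511 to 1769 (log2 ratio -0.99 ± 0.35, and past 2-fold after quantile normalization and loess). Choline acetyltransferase (ChAT) had a log2 ratio of -0.49 ± 0.12 over its 2 probe sets, at -0.38 and -0.61, close to the ratio of Vmat.

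**Figure D3:**
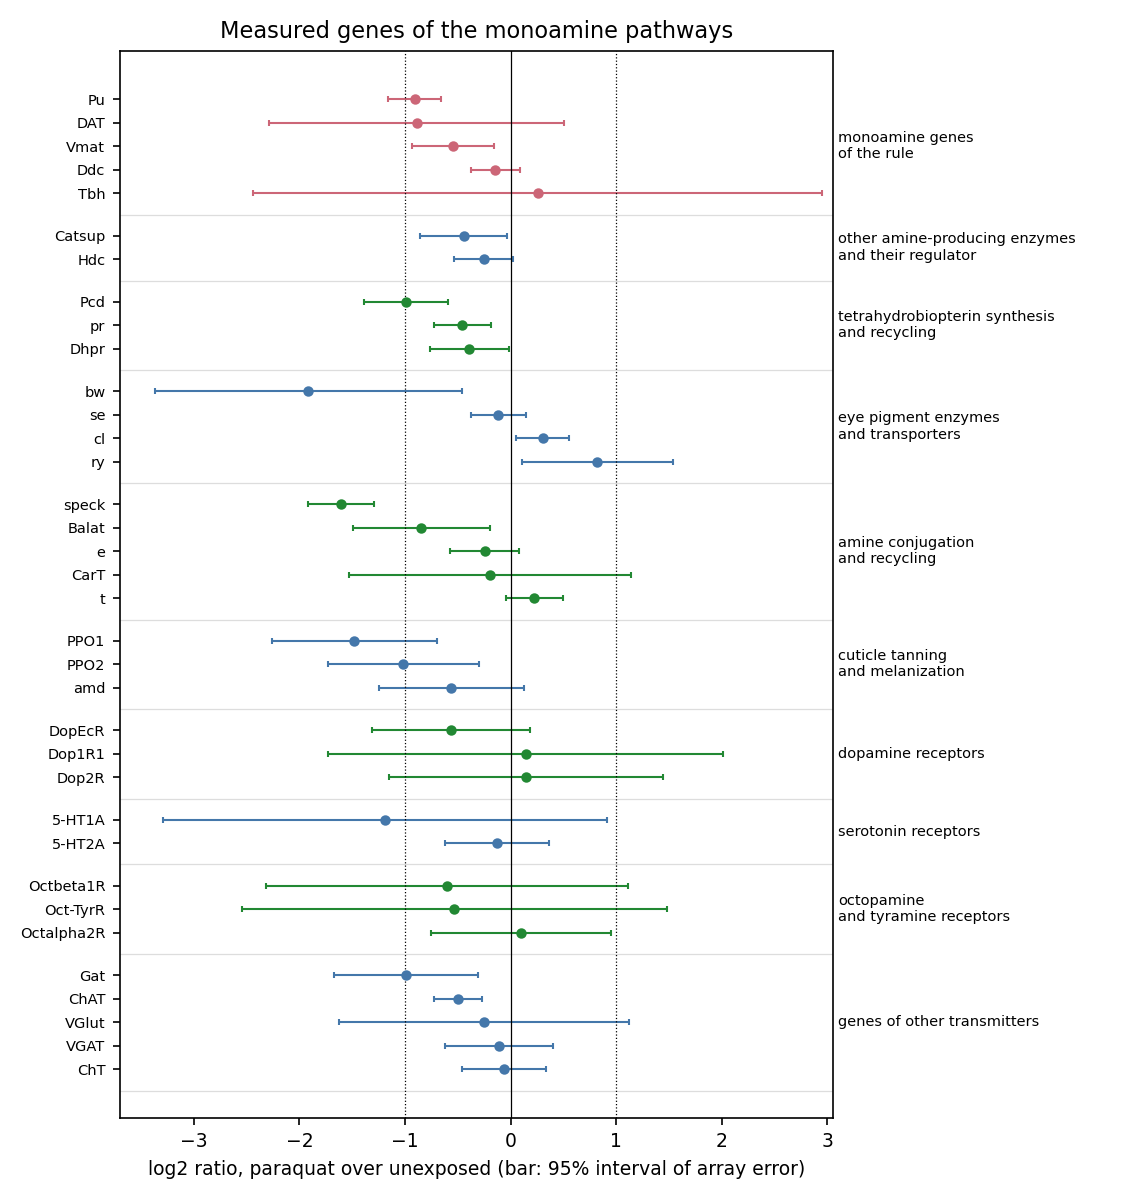
Log2 ratio of paraquat over unexposed (horizontal axis) with bars of the 95% interval of array error for the 5 measured monoamine genes (red) and the 30 measured genes of the related lists (blue and green in turn), grouped by role; dotted lines mark 2-fold. All monoamine genes of the rule lie between the dotted lines, and speck, bw (its measured probe set), PPO1, PPO2 and 5-HT1A lie to the left of the lower one.

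Markers of cell types were set beside these values. The head's own markers were present, with 7 of 7 photoreceptor genes above the floor on both arrays. Summed intensity of 7 photoreceptor genes on the paraquat array was 92.7% of that on the unexposed array, and that of 7 neuronal genes was 94.6%, with median log2 ratios of -0.10 and -0.12. In these sums values below 0 count as 0. Of 6 measured neuronal genes, 3 were above 0 and 3 below, and brp was above the floor with paraquat alone. unc-13 (0.54 ± 0.13) was higher and Csp (-0.51 ± 0.12) lower, each beyond the 95% interval of array error. The summed level was 79.5% for 8 glial genes (median -0.81, with loco opposed at 1.84 ± 0.24 and moody above the floor with paraquat alone), 62.1% for 6 haemocyte genes (median -0.70), 40.6% for 6 muscle genes (median -0.67) and 15.2% for 6 fat body genes (median -2.89 over 5 genes, with fit under the floor in the paraquat group). Of 6 gut enzyme genes, 2 were measured on both arrays, with opposite signs. For 7 genes of the male reproductive tract, the summed level was at most 11.7%, a bound with each paraquat value put at the floor, unlike the sums above. That floor is under the highest absent control of the paraquat array (533). All 7 were above the floor on the unexposed array and none on the paraquat array. The part of these tissues in the values of Pu, Vmat, DAT and speck was not tested. The 18S ribosomal RNA controls were also lower, with log2 ratios from -1.01 to -0.92. The 3 prime over 5 prime signal was 15.3 in unexposed heads and 11.8 with paraquat for the actin control, 11.7 and 9.79 for eIF-4a, and 2.74 and 2.48 for GAPDH. The 5 prime signal was the weaker on both arrays, and its part in the signals under the floor was not tested.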

How the data were processed

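Per the labels' protocols, heads were freed in liquid nitrogen and separated from bodies with a sieve, RNA was extracted with Trizol and enriched for poly(A) RNA, and samples were hybridised to Affymetrix DrosGenome1 arrays. The deposited table holds 1 linear intensity for each of 14010 probe sets (44 of them controls), negative in places. The authors had scaled these intensities to the same trimmed mean of 2500 (2% trimmed from each end), as the values show. Software that summarised the probes: not given in the sources used here.

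Arrays were scaled by 1.01 (unexposed) and 0.99 (paraquat) to a common median. The floor of 477.3 is the 40th percentile of probe set means over both arrays, set before log2 was taken. Genes with several measured probe sets took their mean log2 ratio. The array error joins the SD of 46 absent control intensities (358.3) with the SD of 9 spiked-in control log2 ratios (0.12), and came to 1.54 for a probe set at the floor and 0.19 for one 10 times as bright. Having 1 array a group limits the precision of every value. Steps were tested on simulated data. Calculations used Python 3.11.15, pandas 2.3.3 and, for loess, statsmodels 0.14.6.

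Symbols came from a platform annotation dated 2016 and were updated by gene identifier through the RefSeq table of assembly Release 6, which 12394 of 12443 single-symbol probe sets matched. That table served for names and gene order. Groups were taken from sample titles. The monoamine genes, the related lists and the marker lists were chosen with earlier results of these data known. All monoamine genes are named. From each related list, genes past 2-fold, or otherwise those farthest from 0, are named, as are genes above the floor on 1 array alone. Named outside that rule, after their values were seen, are Dhpr, Sptr, e, t, Balat, amd, 5-HT2A, ry, cl and the markers unc-13, Csp, brp, loco, moody, srp and fit, and genes named for their number of probe sets. Other scalings, floors, a pseudocount, the brightest probe set and a 1.5-fold threshold were tried.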

Additional observations from a re-analysis of the deposited data

How the results depend on the processing

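No paired analysis was possible because each group held 1 array. Ddc, Pu, Vmat and DAT had log2 ratios below 0, and Tbh above 0, under every alternative that measured them, and DAT was below Pu after quantile normalization and loess. The ranges were -0.14 to -0.06 for Ddc, -0.91 to -0.88 for Pu, -0.94 to -0.62 for DAT and 0.13 to 0.29 for Tbh. Vmat ranged from -0.60 to -0.16, the last with a pseudocount of 500 in place of the floor, which averages in its probe set under the floor. DAT was not measured with the floor at the 60th percentile, nor Tbh there or with the floor at the highest absent control. No monoamine gene passed 2-fold under any alternative run. With a threshold of 1.5-fold 2 were lower (Pu and DAT) and none higher, against 17.4% lower and 19.1% higher of all measured probe sets. The median of the monoamine genes was between -0.72 and -0.51, and -0.14 with ple and SerT kept at the floor. Of the related genes, those of other transmitters included, 5 of 30 were at least 2-fold lower, against 8.22% of all measured probe sets. The count was 4 without further scaling (7.80% of all measured probe sets), 6 with quantile normalization (8.10%) and 7 with loess (8.69%), each of 30. With the floor at the 60th percentile, where fewer were measured, the count was 3 of 22 (6.54%). With the pseudocount the count was 2 of 46, against 6.11% of all probe sets, and 1 (Tdc1) was at least 2-fold higher, against 5.48%. In alternatives chosen after seeing the data, it was 5 of 25 without the genes of other transmitters, 4 of 29 without bw, and 4 lower and 1 higher with the second probe set of bw. speck and PPO1 were at least 2-fold lower under all alternatives run. A floor at the 20th percentile was not run, because that percentile was a negative intensity (-20.4). Signal over background limits ple, SerT, Tbh and DAT most.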

Other observations

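In the monoamine genes and the related lists, 10 genes were read by more than 1 probe set. All their probe sets were measured for 1 gene (ChAT), some for 6 (Vmat, bw, CarT, PPO2, amd and Dop2R) and none for 3 (5-HT2B, Octbeta2R and Octbeta3R). For those 6 genes, a probe set under the floor thus did not show that the transcript was absent. For the 3 with none measured, presence of the transcript was not tested. ple, SerT and Tbh were each read by 1 probe set.

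Balat, which takes up beta-alanine for the conjugation of amines in glia, went from 3431 in unexposed heads to 1911 with paraquat (log2 ratio -0.84 ± 0.33, array error). Of 5 measured genes of amine conjugation and recycling, 2 (Balat and speck) were lower beyond the 95% interval of array error, against 14.8% of all measured probe sets. The glial markers had a median of -0.81 with loco opposed (1.84 ± 0.24), and their part was not tested.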
